A study of Mus musculus with 4 samples.

Results

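The Reg genes encode small secreted proteins with a C-type lectin fold, and 6 of them, Reg1, Reg2, Reg3a, Reg3b, Reg3d and Reg3g, were followed one by one. They were taken by name out of the 32288 features of the deposited count matrix, and all 6 had UMIs in each of the 4 mice. A UMI is a molecular tag that stands for 1 captured RNA molecule. The study asked how acinar cells, the enzyme-making cells of the pancreas, change identity during chronic pancreatitis. It used caerulein, a cholecystokinin analogue that overstimulates acinar cells, and single-cell RNA sequencing of cells sorted for a heritable yellow fluorescent protein (EYFP).

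The groups were 2 mice given caerulein for 2 weeks and 2 mice given it for 4 weeks. All 4 carried Ptf1aCre-ERTM;ROSAYFP/+ on a stock bred back to CD-1, received tamoxifen before the injury, and were 10 weeks old when it began. The Cre is driven from Ptf1a, an acinar transcription factor gene, so the label follows cells that were acinar at the time of tamoxifen. No uninjured mouse was analysed here, so each comparison is between 2 injured groups or between cell types of the same mice. Values per mouse are given throughout in the order 2-week mouse 1, 2-week mouse 2, 4-week mouse 1 and 4-week mouse 2.

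The authors' labels put 13362 of 21140 cells into 8 types, and the other 7778 cells carried no type. The types were Acinar (3698 cells), Acinar.Prolif (894), Acinar/MucinDuctal (1955), MucinDuctal (3983), Ductal-like (139), Tuft (1280), EEC (1208, enteroendocrine) and Tuft/EEC.Progenitor (205). Typed cells held 82908913, 90547790, 60224505 and 81140682 UMIs per mouse. Only 10 progenitor cells came from 2-week mouse 1, so that type is given for 3 mice. Of 21068 distinct cell barcodes, 67 occurred in more than 1 mouse.

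As background, Reg1 and Reg2 are major secretory products of acinar cells, and the Reg1 protein is also called lithostathine or pancreatic stone protein. Reg3b is the classical pancreatitis-associated protein, made in bulk by acinar cells during acute injury, and with Reg3g it is best known as an antibacterial lectin of the intestine. Cytokines of the IL-6 and IL-22 families switch on Reg genes through STAT3, while acinar-restricted genes depend on the PTF1 complex that contains Ptf1a.

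The 6 genes lie side by side within 98.0 kb of mouse chromosome 6 in GRCm38 (mm10), the build named in the submitters' processing notes. The RefSeq positions are chr6:78370885-78373466 for Reg3b, chr6:78375874-78378865 for Reg3d, chr6:78380709-78383839 for Reg3a, chr6:78405155-78408099 for Reg2, chr6:78425983-78428668 for Reg1 and chr6:78466269-78468874 for Reg3g. Reg3d and Reg3g are on the minus strand and the other 4 are on the plus strand. Their coding sequences run from 495 bases (Reg1) to 525 bases (Reg3a, Reg3b and Reg3d). Identity between members ranged from 70.7% for Reg2 with Reg3g to 83.4% for Reg1 with Reg2, and was 79.2% for Reg3b with Reg3g. In the last 500 bases of each transcript, where this 3′ assay reads, none of 451 windows of 50 bases was shared exactly with another member. How the authors' counting treated reads that fit several genes is not given in the sources used here.

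Upstream sequence is shown for 4 members whose CPM in mucin-producing cells, given further on, lay on different sides of the free RNA level: Reg3b and Reg3g above it, and Reg2 and Reg3d below it in most mice. By UMIs per cell, which also follow depth, Reg2 and Reg3d were above it in 3 of 4 mice, so the split holds for CPM only. Each line gives the 250 bases before the RefSeq transcription start in GRCm38.p6, 5′ to 3′ on the gene's own strand. Capitals mark matches, on either strand, to TTCNNNGAA (the palindrome bound by STAT factors) or to TTTCCC (the TC-box of the PTF1 site, GGGAAA on the other strand).
Reg2 (chr6:78404905-78405154, plus strand): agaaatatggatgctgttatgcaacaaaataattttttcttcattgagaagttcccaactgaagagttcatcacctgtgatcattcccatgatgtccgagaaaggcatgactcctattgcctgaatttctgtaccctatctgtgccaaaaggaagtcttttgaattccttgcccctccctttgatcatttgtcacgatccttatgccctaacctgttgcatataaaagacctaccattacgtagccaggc
Reg3b (chr6:78370635-78370884, plus strand): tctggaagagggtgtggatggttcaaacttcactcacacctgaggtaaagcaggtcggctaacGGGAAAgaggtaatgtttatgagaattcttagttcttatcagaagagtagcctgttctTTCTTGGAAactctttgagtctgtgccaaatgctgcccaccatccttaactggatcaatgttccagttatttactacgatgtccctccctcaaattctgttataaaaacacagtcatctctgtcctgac
Reg3d (chr6:78378866-78379115, minus strand): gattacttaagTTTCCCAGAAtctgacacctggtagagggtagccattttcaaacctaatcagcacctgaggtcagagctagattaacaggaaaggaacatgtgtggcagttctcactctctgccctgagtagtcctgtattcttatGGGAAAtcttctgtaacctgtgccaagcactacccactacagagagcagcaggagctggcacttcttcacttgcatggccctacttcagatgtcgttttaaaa
Reg3g (chr6:78468875-78469124, minus strand): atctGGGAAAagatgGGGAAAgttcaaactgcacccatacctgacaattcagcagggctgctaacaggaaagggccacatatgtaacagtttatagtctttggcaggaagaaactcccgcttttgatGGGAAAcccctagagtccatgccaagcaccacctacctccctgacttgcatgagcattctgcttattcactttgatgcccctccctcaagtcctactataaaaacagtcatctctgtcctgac
The stretch upstream of Reg3b held 1 match to TTCNNNGAA and 1 to TTTCCC. The stretch upstream of Reg3g held no match to TTCNNNGAA and 3 to TTTCCC, and that upstream of Reg2 held neither. The stretch upstream of Reg3d held 1 match to TTCNNNGAA, which overlaps the first of its 2 matches to TTTCCC. Of the members not shown, Reg1 had 1 match to TTTCCC and Reg3a had none to either motif. Among 27025 promoter stretches of the same length, 7.18% held TTCNNNGAA and 21.9% held TTTCCC. A match is a run of letters and was not tested as a binding site.

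Free acinar RNA can reach droplets of other cells, and unlabelled cells give an estimate of its level. B cell-like clusters among them, which should make no Reg protein, gave Reg1 levels of 5822, 1416, 6209 and 3375 counts per 1000000 UMIs (CPM), or 25.2, 7.88, 42.0 and 13.7 UMIs per cell. The estimate varied with the cells chosen: Reg1 was 5699, 2114, 4267 and 5840 CPM in T or NK cell-like, 3218, 2458, 1449 and 7454 CPM in fibroblast-like and 5189, 4534, 1692 and 2138 CPM in endothelial-like cells. B cell-like cells are the background below except where another is named. Their Reg2 level was 224.6, 188.4, 64.9 and 76.8 CPM and their Reg3b level 142.2, 81.5, 46.4 and 31.1 CPM. Reg3g in B cell-like cells was only 1.62, 5.51, 2.32 and 5.49 CPM. The share of B cell-like cells with a Reg1 UMI was 99.5% or more in each mouse, at a median depth of 2905 to 3649 UMIs per cell. A detected Reg1 molecule therefore says nothing about expression in a cell. The Reg3g floor was low in CPM, but so was Reg3g itself, at 36.2, 40.2, 11.8 and 25.2 CPM in Acinar cells.

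**Figure D1:**
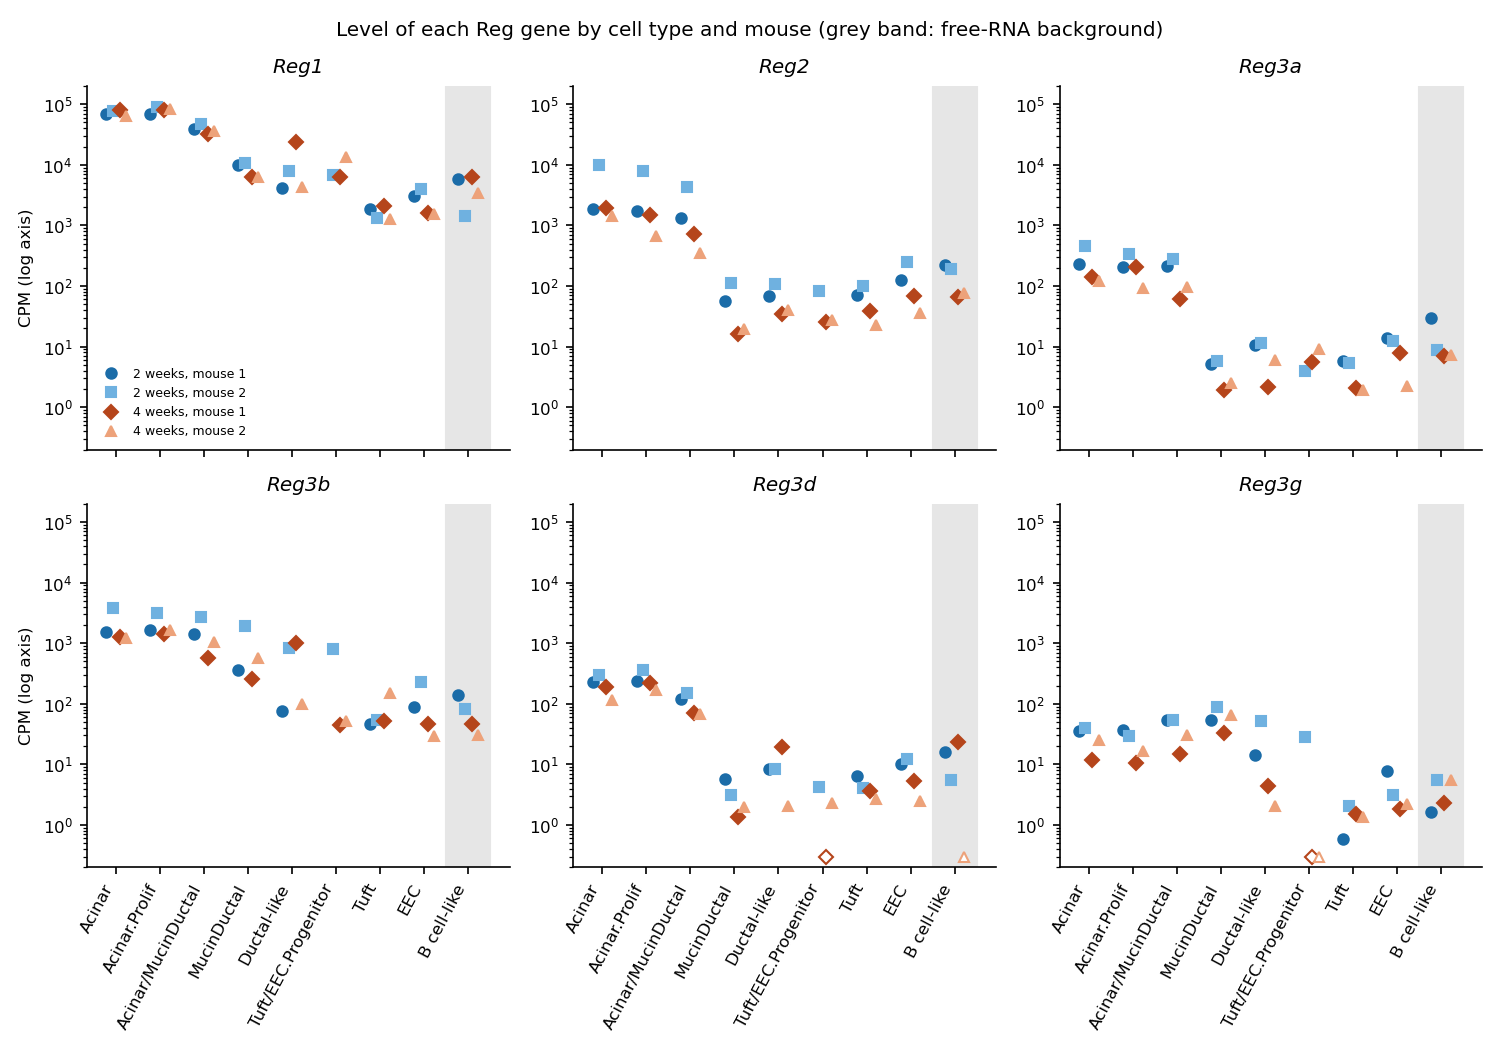
Level of each Reg gene (CPM, log axis) in each deposited cell type, with 1 point per mouse, beside the B cell-like background. Reg1 is highest in Acinar and Acinar.Prolif cells, Reg2, Reg3a and Reg3d lie at or below the background CPM in most MucinDuctal samples, and Reg3g has its highest mean there. Open points at the bottom mark mice with no UMI.

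Reg1 was among the most abundant transcripts of acinar cells. Acinar cells had 68617, 78786, 81536 and 64828 CPM, which is 2353, 2346, 2794 and 2592 UMIs per cell. Reg1 thus made up 84.3% to 95.8% of all Reg UMIs in Acinar cells, and its level varied little between mice. In order of their mean, Reg1 stood at 80416 ± 8286 CPM in Acinar.Prolif cells, 73442 ± 7991 in Acinar, 38400 ± 6054 in Acinar/MucinDuctal, 9991 ± 9194 in Ductal-like, 8943 ± 4136 in Tuft/EEC.Progenitor (n = 3), 8296 ± 2429 in MucinDuctal, 2558 ± 1210 in EEC and 1650 ± 428 in Tuft cells (SD, n = 4 mice except where given). The ranges over mice of Acinar.Prolif and Acinar overlapped, as did those of Ductal-like, progenitor and MucinDuctal cells. The ranges of EEC and Tuft cells overlapped as well. Acinar/MucinDuctal cells lay apart from their neighbours on both sides.

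MucinDuctal cells held on average more Reg1 per cell than the background, a value that also follows depth. The median MucinDuctal cell held 73, 155.5, 42 and 36 Reg1 UMIs, beside B cell-like means of 25.2, 7.88, 42.0 and 13.7. As means, MucinDuctal cells held 229.8, 290.0, 115.6 and 115.6 Reg1 UMIs per cell, more than B cell-like cells in 4 of 4 mice. Their CPM was above that of B cell-like cells in 3 of 4. The exception by CPM was 4-week mouse 1, with 6184 CPM in MucinDuctal and 6209 CPM in B cell-like cells. Against T or NK cell-like and endothelial-like cells the CPM was above in 4 of 4 mice, and against fibroblast-like cells in 3 of 4. Reg1 was also high relative to digestive enzymes: MucinDuctal cells had 33.4, 77.9, 21.4 and 26.9 Reg1 UMIs per 100 UMIs of the 21 acinar enzyme and secreted-protein genes. The same ratio was 13.9, 16.4, 14.4 and 11.6 in Acinar cells and 12.0, 15.3, 13.1 and 9.75 in B cell-like cells. The MucinDuctal ratio lay above both in each mouse, and the part of free RNA in the MucinDuctal level was not tested. A ratio above that of Acinar cells was not particular to MucinDuctal cells. Progenitor cells had 39.5, 28.2 and 36.5 in the 3 mice with enough of them. Ductal-like cells had 15.2, 38.3, 23.7 and 16.3 and Acinar.Prolif cells 16.6, 26.0, 18.3 and 19.9, also above Acinar cells in each mouse. In Tuft cells Reg1 was below the B cell-like CPM in 4 of 4 mice, while 3 of 4 had more Reg1 UMIs per cell than B cell-like cells. Against fibroblast-like or endothelial-like cells the Tuft CPM was above in 1 of 4 mice.

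In Ductal-like cells 1 cell carried much of the Reg1 of a mouse. Of 10772 Reg1 UMIs from 23 Ductal-like cells of 4-week mouse 1, 6001 (55.7%) came from a single cell. The level of 23513 CPM in that mouse against 4151, 8035 and 4265 CPM in the others rests in part on that cell. Without it the mouse had 216.9 Reg1 UMIs per cell, between the 95.2 and 344.0 of the others. Values per cell follow depth, and this mouse was the shallowest. Its median was 8889 UMIs, against 31156.5, 38505.5 and 21039 in the others, so its CPM need not fall between theirs. Likewise, 1 of 28 progenitor cells of 4-week mouse 2 held 3816 of 5978 Reg1 UMIs (63.8%), and without it that mouse had 80.1 Reg1 UMIs per cell in place of 213.5, so the place of progenitors in the order rests partly on that cell.

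Reg2, the closest relative of Reg1 in coding sequence, varied far more between mice. Acinar cells had 1876, 9961, 1931 and 1411 CPM, so that 2-week mouse 2 stood far above the other mice. Acinar.Prolif cells repeated this with 1728, 7777, 1484 and 680.0 CPM, and Acinar/MucinDuctal cells with 1318, 4357, 714.1 and 351.7 CPM. Those 3 types formed the upper tier of Reg2 and their ranges overlapped. All 5 other types had means of 45.0 to 118.2 CPM with overlapping ranges. MucinDuctal cells had 56.1, 111.2, 16.1 and 19.6 CPM of Reg2, below the B cell-like level in 4 of 4 mice. Per cell, which also follows depth, they held more Reg2 UMIs than B cell-like cells in 3 of 4 mice.

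The number of Reg1 UMIs per Reg2 UMI was lowest in 2-week mouse 2 in most groups of cells. In Acinar cells it was 36.6, 7.91, 42.2 and 46.0. T or NK cell-like cells, which should make no Reg RNA, had 33.0, 7.11, 36.1 and 49.8. B cell-like cells had 25.9, 7.51, 95.6 and 43.9, and the unlabelled acinar-like cells 20.8, 8.25, 27.6 and 44.6. The low Reg1-to-Reg2 ratio of 2-week mouse 2 was therefore present in typed and in untyped cells, but not in Ductal-like cells, which had 60.7, 74.1, 673.2 and 104.7. MucinDuctal cells had 176.1, 97.7, 384.3 and 320.1 Reg1 UMIs per Reg2 UMI, and progenitor cells 83.5, 248 and 498.2 in the 3 mice with enough of them. These 2 types and Ductal-like cells were above Acinar cells in each mouse, with no fixed order among them. Tuft cells had 26.4, 13.2, 54.7 and 55.8 and EEC 24.9, 16.4, 23.6 and 43.1. EEC were below Acinar, B cell-like and T or NK cell-like cells of the same mouse in 3 of 4 mice and above them in 2-week mouse 2. Tuft cells were above all 3 in 2-week mouse 2 and 4-week mouse 2.

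**Figure D2:**
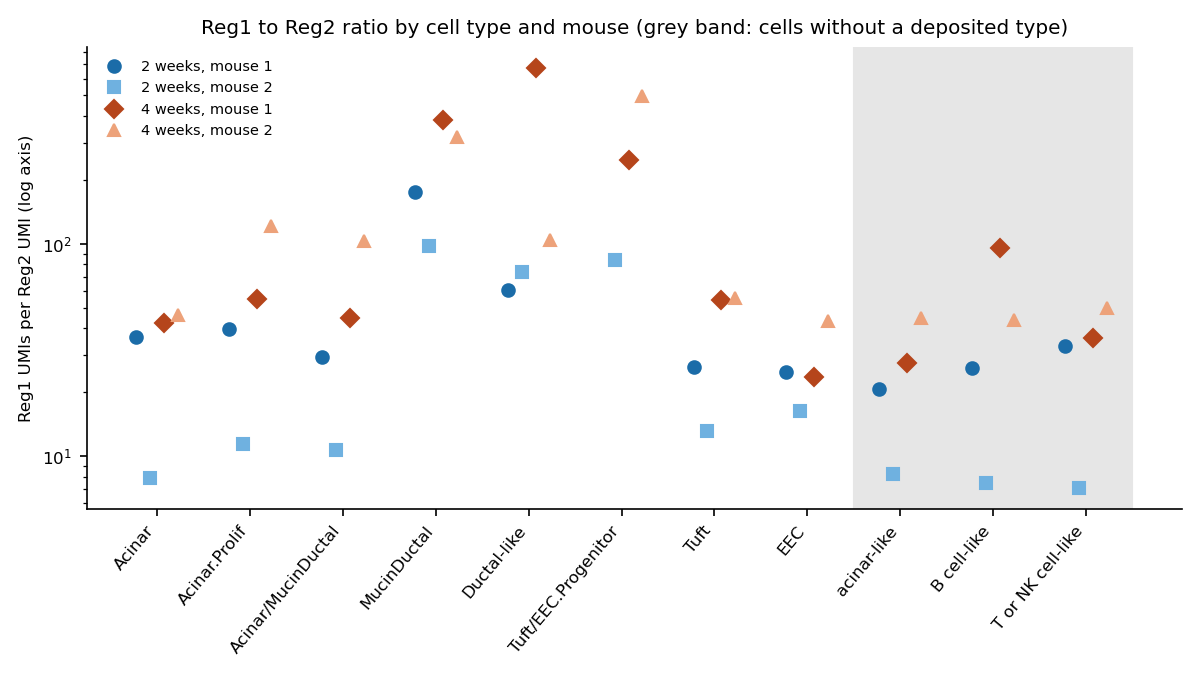
Reg1 UMIs per Reg2 UMI (log axis) in deposited types and in unlabelled cells, 1 point per mouse. MucinDuctal cells lie above Acinar cells in each mouse, from 97.7 to 384.3, and 2-week mouse 2 is lowest in Acinar and in B cell-like cells.

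Reg3a, a member of the Reg3 branch, was an acinar transcript of moderate level. Acinar cells had 227.8, 463.1, 138.9 and 122.8 CPM (7.81, 13.8, 4.76 and 4.91 UMIs per cell). Acinar.Prolif cells had a mean of 208.8 ± 99.2 CPM and Acinar/MucinDuctal cells 162.6 ± 102.8 CPM (SD, n = 4), and the ranges of all 3 types overlapped. In MucinDuctal cells Reg3a was 5.21, 5.75, 1.95 and 2.49 CPM, below the B cell-like level in 4 of 4 mice by CPM and in 2 of 4 per cell. Means in the remaining types ran from 3.81 to 8.98 CPM with overlapping ranges.

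Reg3d, a relative of the islet neogenesis-associated protein of hamster, followed the same pattern. Acinar cells had 228.4, 298.6, 190.5 and 117.5 CPM, Acinar.Prolif cells 247.3 ± 78.2 and Acinar/MucinDuctal cells 102.6 ± 40.1 (SD, n = 4). MucinDuctal cells had 5.79, 3.18, 1.34 and 1.97 CPM, above the B cell-like level in 1 of 4 mice by CPM and in 3 of 4 per cell. The mouse above by CPM was 4-week mouse 2, where none of 135 B cell-like cells had a Reg3d UMI, which allows up to 2.22% of cells with one and up to 5.49 CPM. No Reg3d UMI was found in 25 progenitor cells of 4-week mouse 1, which allows up to 12.0% of cells with one. These limits and the binomial intervals given with shares cover counting error only.

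Reg3b was, after Reg1, the member with the highest mean CPM in MucinDuctal cells. Acinar cells had 1521, 3881, 1275 and 1199 CPM (52.2, 115.5, 43.7 and 48.0 UMIs per cell). MucinDuctal cells had 361.5, 1927, 256.8 and 568.3 CPM, above the B cell-like level in 4 of 4 mice. In both types 2-week mouse 2 was highest. By mean, Reg3b ran from Acinar (1969 ± 1282 CPM) and Acinar.Prolif (1964 ± 777) through Acinar/MucinDuctal (1446 ± 937), MucinDuctal (778.4 ± 776.6), Ductal-like (500.1 ± 480.0) and progenitor cells (297.4 ± 430.6, n = 3) to EEC (96.9 ± 88.9) and Tuft cells (75.2 ± 49.3; SD, n = 4 otherwise). Each neighbouring pair in that order overlapped over mice.

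In some mice 1 cell carried most of the Reg3b UMIs of a type. A single Tuft cell of 4-week mouse 2 held 638 of that mouse's 777 Tuft Reg3b UMIs (82.1%), and the other cells averaged 0.436 UMIs. A single Ductal-like cell of 4-week mouse 1 held 437 of 454 Reg3b UMIs (96.3%). The highest Tuft cell held 55.3% in 4-week mouse 1, and 8.97% and 5.57% in the 2-week mice. In MucinDuctal cells no cell held more than 10.5% of the Reg3b UMIs of its mouse, but the top 5% of cells held 56.5%, 39.2%, 70.2% and 67.0%.

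Reg3g was the least abundant of the 6 in Acinar cells and the only one whose mean CPM was highest outside the acinar types. Acinar cells had 36.2, 40.2, 11.8 and 25.2 CPM, and MucinDuctal cells 53.5, 87.9, 33.0 and 66.3 CPM. MucinDuctal was higher in each mouse, and in both types 4-week mouse 1 was lowest. Acinar/MucinDuctal cells had 53.7, 53.3, 14.9 and 31.0 CPM and Acinar.Prolif cells 36.9, 29.8, 10.5 and 16.8. The ranges of these 4 types overlapped over mice. Ductal-like cells had 14.4, 53.0, 4.37 and 2.04 CPM. EEC had 3.72 ± 2.67 and Tuft cells 1.36 ± 0.592 CPM (SD, n = 4). Tuft cells were below the B cell-like CPM in 4 of 4 mice and EEC in 3 of 4, the exception being 2-week mouse 1 with 7.65 CPM in EEC and 1.62 CPM in B cell-like cells. There, 1 EEC cell held 14 of 31 Reg3g UMIs. By UMIs per cell, Tuft cells were above B cell-like cells in 3 of 4 mice and EEC in 4 of 4. This floor rests on few UMIs, at 0.00699, 0.0307, 0.0157 and 0.0222 per B cell-like cell. T or NK cell-like cells of the 4-week mice had no Reg3g UMI. Progenitor cells of 2-week mouse 2 had 102 Reg3g UMIs in 142 cells, or 28.5 CPM against 5.51 CPM in its B cell-like cells. No Reg3g UMI was found in 25 and 28 progenitor cells of the 4-week mice, which, at 3 counts of the total, allows up to 12.0% and 10.7% of cells with a UMI.

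The members separated when MucinDuctal cells were set against Acinar cells of the same mouse. The authors' types were defined on these same counts, so the ratios are a description and carry no test. Reg2, Reg3a and Reg3d were lower in MucinDuctal by 71.4-fold, 59.3-fold and 74.9-fold (log2 ratios of CPM -6.16 ± 0.79, -5.89 ± 0.42 and -6.23 ± 0.80, SD, n = 4). Reg1 was lower by 9.11-fold (-3.19 ± 0.44) and Reg3b by 3.07-fold (-1.62 ± 0.67), each in 4 of 4 mice. Reg3g had a log2 ratio of 1.14 ± 0.41 and was higher in MucinDuctal cells of 4 of 4 mice. These folds against Reg2, Reg3a and Reg3d include the free RNA in MucinDuctal droplets.

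The direction for Reg3g depended on what its UMIs were divided by. Digestive enzyme and Reg genes together took 56.6%, 57.3%, 65.1% and 62.5% of all UMIs of Acinar cells but 3.99%, 2.69%, 3.53% and 3.02% of those of MucinDuctal cells, which lowers the CPM of every other gene in Acinar cells. Per cell, Reg3g was 1.24, 1.20, 0.404 and 1.01 UMIs in Acinar and 1.25, 2.35, 0.617 and 1.22 UMIs in MucinDuctal cells, a log2 ratio of 0.47 ± 0.42 that was above 0 in 4 of 4 mice, by as little as 0.01. One MucinDuctal cell of 2-week mouse 1 held 88 of 462 Reg3g UMIs, and without it that mouse had 1.01 per cell, below its Acinar value. Per 1000000 UMIs of all genes outside the enzyme and Reg lists, Reg3g was 83.3, 94.1, 33.7 and 67.3 in Acinar and 55.8, 90.3, 34.2 and 68.3 in MucinDuctal cells, a log2 ratio of -0.15 ± 0.29 with 2 of 4 mice above 0. Reg3g was thus the member that was not lower in MucinDuctal cells by CPM or per cell, and on the last scale the mice were split. The other 5 members were lower in MucinDuctal cells in 4 of 4 mice on all 3 scales.

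**Figure D3:**
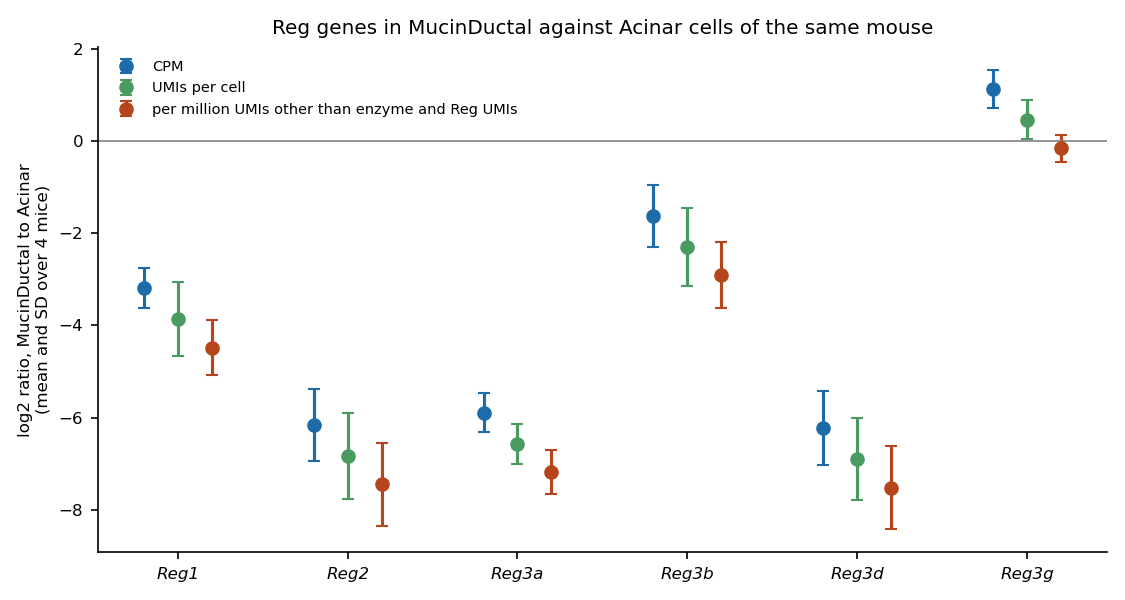
Log2 ratio of MucinDuctal to Acinar cells for each Reg gene, as the mean of 4 mice with bars of 1 SD, on 3 scales: CPM, UMIs per cell and UMIs per 1000000 UMIs of genes outside the enzyme and Reg lists. The means of Reg3g lie near or above 0, and those of the other 5 members lie below 0 on each scale.

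Acinar/MucinDuctal cells, which carry both programmes by their label, held intermediate levels of most members. By CPM, Reg1 was 1.92-fold, Reg2 2.44-fold, Reg3a 1.51-fold, Reg3b 1.41-fold and Reg3d 2.04-fold lower than in Acinar cells, each in 4 of 4 mice. These sums were carried by few cells: the top 5% of Acinar/MucinDuctal cells held 61.8%, 30.4%, 43.3% and 39.6% of the Reg1 UMIs and 80.4%, 46.2%, 70.7% and 45.6% of the Reg2 UMIs. The median cell had 310.5, 1649, 92.3 and 122.8 CPM of Reg2, below the level of the sum in each mouse. Reg3g had a log2 ratio of 0.40 ± 0.12, above 0 in 4 of 4 mice, but per cell the mean was -1.21 ± 1.22, with 2-week mouse 2 going the other way (1.59 against 1.20 UMIs). Against the UMIs of other genes it was -0.46 ± 0.26, below 0 in 4 of 4 mice. The median depth of Acinar/MucinDuctal cells was 3387, 19556, 2659 and 3555 UMIs, against 26482, 24008, 27906 and 32665 in Acinar cells, so values per cell are not comparable there. The authors split this type in clusters, and Reg1 was 53833, 65074, 49828 and 46054 CPM in cluster 3 against 20249, 29314, 17279 and 22695 CPM in cluster 4. By CPM, Reg3g went the other way, with 50.2, 51.8, 7.87 and 25.7 CPM in cluster 3 and 58.5, 54.8, 20.6 and 38.8 CPM in cluster 4. The enzyme genes took 349698, 363253, 342174 and 355498 CPM in cluster 3 but 98537, 114786, 119027 and 149317 in cluster 4. This lowers the CPM of other genes in cluster 3. The clusters were not compared on the scale of other genes, so no direction of Reg3g is read beyond CPM.

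The authors' clusters also divided MucinDuctal cells. In cluster 1, Reg3b was 864.4, 2237, 655.9 and 1102 CPM, and in cluster 2 it was 183.5, 591.5, 170.1 and 174.8 CPM. Reg1 was 21512, 11972, 13498 and 9257 CPM in cluster 1 and 5761, 6084, 4597 and 4050 CPM in cluster 2. Reg3g was 104.2, 91.1, 37.5 and 96.7 CPM against 35.6, 73.9, 32.1 and 43.9 CPM. All 3 genes were thus higher in cluster 1 in each mouse, with the narrowest gaps for Reg3g. Since clusters were built on these counts, no test was made. Cluster 1 made up 1138 of 1388 MucinDuctal cells in 2-week mouse 2 but 113 of 371, 228 of 961 and 551 of 1263 in the others, so the mix of clusters differed between mice beside every MucinDuctal level given here.

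Within a type, the members differed in how evenly cells shared them. Reg1 was even in Acinar cells: the cell at the 90th percentile had 3.51, 3.37, 2.93 and 3.74 times the CPM of the cell at the 10th. For Reg2, the top 10% of Acinar cells held 61.7%, 45.2%, 66.3% and 70.3% of the UMIs. For Reg3b the same share was 47.2%, 48.9%, 57.4% and 53.9%. For Reg3g it was 72.0%, 69.6%, 85.7% and 85.2%, at about 1 UMI per cell, where counting alone makes shares uneven. In MucinDuctal cells the top 10% held 60.0%, 43.1%, 56.1% and 58.3% of the Reg1 UMIs.

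The share of cells with a Reg3g UMI was 34.4% (95% exact Clopper-Pearson interval 31.9 to 36.9), 35.2% (31.3 to 39.2), 15.9% (13.4 to 18.7) and 23.2% (20.5 to 26.1) in Acinar cells. It was 24.8% (20.5 to 29.5), 47.7% (45.0 to 50.4), 19.5% (17.0 to 22.1) and 27.5% (25.0 to 30.0) in MucinDuctal cells. The same share in B cell-like cells was 0.699%, 2.45%, 1.57% and 2.22%, at far lower depth. With cells thinned to 1500 UMIs, leaving out 17, 2, 1 and 12 shallower Acinar, 0, 2, 2 and 0 MucinDuctal and 8, 9, 6 and 14 B cell-like cells, it was 4.66%, 5.07%, 1.71% and 3.11% in Acinar, 5.14%, 10.1%, 3.60% and 6.32% in MucinDuctal and 0.301%, 1.36%, 0.215% and 1.14% in B cell-like cells. Reg3g-positive cells were thus found above background in both types, and at these thinned levels no change between them is read.

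Reg3g tended to sit in the same cells as Reg3b. In MucinDuctal cells above the median Reg3b level, Reg3g was 96.8, 130.0, 48.1 and 103.9 CPM, and in the remaining cells 9.37, 34.3, 16.0 and 19.6 CPM. In Acinar cells the same split gave 55.5, 59.6, 20.2 and 41.8 against 14.9, 19.5, 2.64 and 8.19 CPM. Acinar/MucinDuctal cells gave 78.7, 78.2, 17.3 and 46.3 against 25.5, 21.3, 12.3 and 15.4 CPM, so the upper cells were higher in each mouse and type. The median depth of upper and lower cells was 19304 and 19242 UMIs in MucinDuctal cells of 2-week mouse 1, but upper cells were deeper in most others, for example 25548 and 15785 in Acinar/MucinDuctal cells of 2-week mouse 2. Across MucinDuctal cells of a mouse, Spearman's correlation of Reg3b with Reg3g was 0.30 to 0.44 and that of Reg1 with Reg3b 0.34 to 0.70, between cells that share a library and differ in depth. In Acinar cells Reg3b with Reg3g gave 0.25 to 0.37 and Reg1 with Reg3g -0.00 to 0.09. Reg3b gave 0.39 to 0.46 with Reg3a and 0.35 to 0.46 with Reg2 there, so the link was not particular to Reg3g. In Acinar/MucinDuctal cells Reg3b with Reg3g gave only 0.10 to 0.26.

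**Figure D4:**
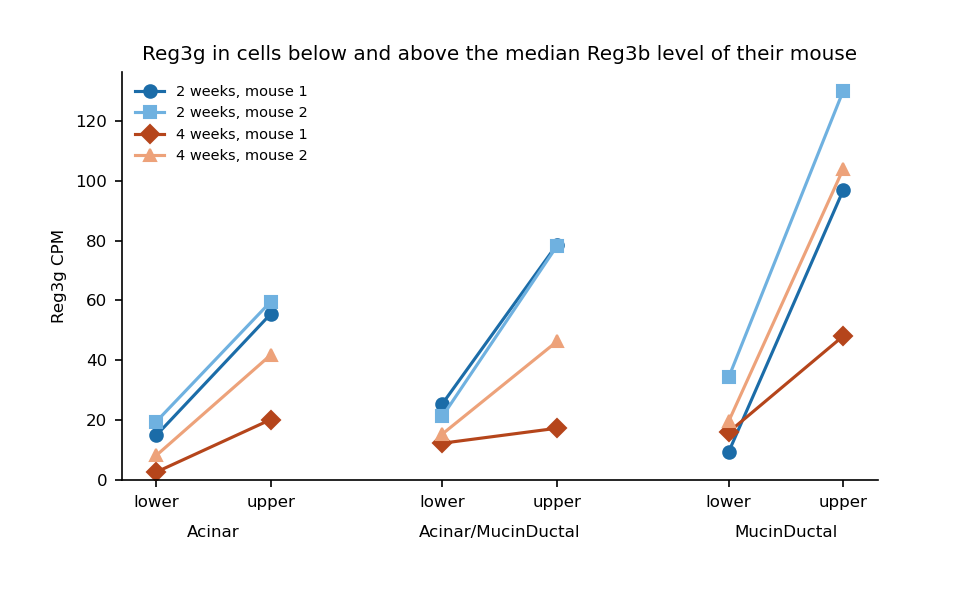
Reg3g level (CPM) in cells above and not above the median Reg3b level of their mouse and type, with lines joining both values of a mouse. Every line rises towards the cells richer in Reg3b, in Acinar, Acinar/MucinDuctal and MucinDuctal cells.

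Between 2 and 4 weeks, Reg genes were mostly lower at the later time, but no single member passed the test after adjustment. UMIs were summed per mouse and type and tested with edgeR's quasi-likelihood test, with Benjamini-Hochberg adjustment over all genes of a type and significance at 0.05. Nothing in the labels ties mice across groups, and p-values measure the spread between 2 mice per time. Of 42 pairs of member and type (the progenitors were not tested), 39 passed the filter on low counts. Reg3a and Reg3d in Ductal-like cells and Reg3g in Tuft cells did not. None of the 39 had an adjusted p under 0.05, and the lowest was 0.35. Of all genes tested, 0% passed in each type except Acinar.Prolif, where 0.00995% did.

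At an unadjusted p under 0.05, 16 of the 39 pairs were past the threshold, all of them lower at 4 weeks. By type these were 1 of 6 members in Acinar cells (2.79% of all genes), 1 of 6 in Acinar.Prolif (2.45%), 5 of 6 in Acinar/MucinDuctal (3.42%), 3 of 6 in MucinDuctal (5.39%), 2 of 4 in Ductal-like (5.27%), 2 of 5 in Tuft (6.74%) and 2 of 6 in EEC (4.03%). They were Reg1 in EEC, Reg2 in Acinar/MucinDuctal, MucinDuctal, Ductal-like and Tuft cells, Reg3a in Acinar, Acinar/MucinDuctal, MucinDuctal and Tuft cells, Reg3b in Acinar/MucinDuctal cells, Reg3d in Acinar/MucinDuctal, MucinDuctal and EEC cells, and Reg3g in Acinar.Prolif, Acinar/MucinDuctal and Ductal-like cells. Some of these pairs lay near or below the B cell-like CPM. Reg2 in MucinDuctal, Ductal-like and Tuft cells was above it in 0 of 4 mice, as was Reg3a in MucinDuctal and Tuft cells. Reg1 in EEC and Reg3d in MucinDuctal cells were above it in 1 of 4 and Reg3d in EEC in 2 of 4. The other pairs were above it in 3 or 4 of 4 mice. By UMIs per cell, Reg2 was above B cell-like cells in 3 of 4 mice in MucinDuctal cells. In Ductal-like and Tuft cells it was above them in 4 of 4. Reg3a was above in 2 of 4 in MucinDuctal and in Tuft cells. Reg1 in EEC and Reg3d in MucinDuctal cells and EEC were above in 3 of 4. B cell-like cells were shallower than these types, so neither measure alone sets the side. The members share libraries and normalisation within a type, and the types share mice, so these pairs are not independent of each other. Of the 39 values, 33 were lower and 6 higher at 4 weeks with TMM scaling, and with total UMIs Reg1 in Acinar cells changed sign. The 6 higher ones were Reg1 in Acinar, Acinar.Prolif, Ductal-like and Tuft cells and Reg3b in Ductal-like and Tuft cells.

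Reg2 was lower at 4 weeks in all 7 types tested. In MucinDuctal cells its log2 change was -2.11 (SE 0.35, edgeR adjusted p = 0.824), and in Tuft cells -1.52 (SE 0.28, adjusted p = 0.35). Neither group of mice overlapped the other in these types. With 2 mice per time such a separation is weak, since no exact permutation test could go below p = 0.333. The share of all genes without overlap was not taken. The same holds for each separation of mice by time named below. B cell-like cells moved the same way in Reg2, with 224.6 and 188.4 CPM in the 2-week and 64.9 and 76.8 CPM in the 4-week mice, and its part in the result was not tested. In Acinar cells the change of Reg2 was -1.26 (SE 0.72, adjusted p = 0.998), and without 2-week mouse 2 it was 0.15.

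Reg3a was lower in all 6 types tested, with log2 changes from -0.61 in Acinar.Prolif to -1.56 in Acinar/MucinDuctal cells. In Acinar/MucinDuctal cells the SE was 0.31 and edgeR's adjusted p 0.614. Few cells carried Reg3a in that type: the top 5% held 80.9%, 62.5%, 60.3% and 65.7% of its UMIs. In 2-week mouse 1 a single cell held 248 of 740 (33.5%). In Acinar cells the change was -0.90 (SE 0.32, adjusted p = 0.998), with both 4-week mice below both 2-week mice. B cell-like cells moved the same way in Reg3a, with 29.1 and 8.81 CPM in the 2-week and 6.96 and 7.32 CPM in the 4-week mice. MucinDuctal and Tuft cells lay below that CPM in each mouse, and were above B cell-like cells per cell in 2 of 4. The part of this background in the changes was not tested. Reg3d was lower in all 6 types tested, with a log2 change of -0.88 in Acinar/MucinDuctal cells (SE 0.18, adjusted p = 0.564).

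Reg3g was lower in all 6 types tested, but by amounts that varied. In Acinar.Prolif cells the change was -1.16 (SE 0.28, edgeR adjusted p = 1), and in MucinDuctal cells -0.39 (SE 0.40, adjusted p = 0.874), where the mice of both times overlapped. In Ductal-like cells the change was -3.42 (SE 1.16, adjusted p = 0.901), resting on 2 and 1 Reg3g UMIs in the 4-week mice. Reg3b changed by -1.33 in MucinDuctal cells (SE 0.87, adjusted p = 0.825), and without 2-week mouse 2 by 0.28. In Tuft cells Reg3b was 0.99 higher (SE 0.70, adjusted p = 0.931), which rests on the single cell described above, and without 4-week mouse 2 the value was -0.02.

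Reg1 showed its clearest difference in EEC. They had 3068 and 4030 CPM at 2 weeks and 1616 and 1519 CPM at 4 weeks, with no overlap and a log2 change of -1.08 (SE 0.17, edgeR adjusted p = 0.358). The typical cell did not follow this mean: the median EEC cell held 22 and 9 Reg1 UMIs at 2 weeks and 9 and 12 at 4 weeks. In 2-week mouse 2 the top 5% of EEC cells held 77.6% of the Reg1 UMIs, against 46.0%, 45.6% and 27.8% in 2-week mouse 1 and the 4-week mice. Of the 21 acinar enzyme genes, 9 were lower in EEC at 4 weeks at an unadjusted p under 0.05 and 0 at an adjusted one, with a list median of -0.41 against -0.01 over all genes. The Reg1 level of B cell-like cells had no such order (5822 and 1416 against 6209 and 3375 CPM), nor had that of T or NK cell-like or fibroblast-like cells. The endothelial-like level given earlier did have it, with both 2-week mice above both 4-week mice. By CPM, Reg1 in EEC was above the B cell-like level in 1 of 4 mice, and by UMIs per cell in 3 of 4. The part of free RNA or of cells with acinar content in the EEC difference was not tested.

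The time effects of types were compared in 1 model with the mouse as a block. The time effect of Reg1 was lower in EEC than in Acinar cells by 1.53 on the log2 scale (SE 0.41, edgeR adjusted p = 0.608), that of Reg3b by 1.34 (SE 0.35, adjusted p = 0.608) and that of Reg3d by 1.16 (SE 0.34, adjusted p = 0.705). None passed, as for 0% of all genes, and 3 of 6 members had an unadjusted p under 0.05 against 4.01% of all genes. For MucinDuctal against Acinar, 0 of 6 members passed at either level, against 0% and 3.05% of all genes, and for Reg3g the difference was 0.22 (SE 0.30). DESeq2 called 4 of the 39 pairs: Reg2 in MucinDuctal (adjusted p = 2.78e-05), Reg2 in Tuft (0.0012), Reg1 in EEC (8.58e-06) and Reg3a in Acinar/MucinDuctal cells (0.00294). Of all genes with a p-value, DESeq2 called 0.233% in MucinDuctal, 0.178% in Tuft, 0.0798% in EEC and 0.124% in Acinar/MucinDuctal cells. In Acinar, Acinar.Prolif and Ductal-like cells it called 0 members, and 0.0961%, 0.013% and 0.00663% of all genes. It also called the EEC against Acinar difference of Reg3b (0.00141), as it did for 0.244% of all genes. By CPM, Reg3b in EEC was above the B cell-like level in 1 of 4 mice, and by UMIs per cell in 4 of 4. The mouse above by CPM was 2-week mouse 2. There, 1 EEC cell held 27.1% of the Reg3b UMIs and the top 5% of cells held 79.7%.

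Scaling mattered for Acinar cells, where enzyme and Reg genes took 56.6% and 57.3% of UMIs at 2 weeks and 65.1% and 62.5% at 4 weeks. With TMM scaling, which centres the typical gene, Reg1 in Acinar cells changed by 0.46 (SE 0.41, adjusted p = 0.998), and with total UMIs alone by -0.01. Total UMIs moved the median change of all genes from -0.027 to -0.485 in Acinar cells, from 0.008 to -0.177 in Acinar.Prolif and from -0.007 to -0.129 in MucinDuctal cells. All changes above are relative to the TMM centre. With total UMIs the median of all genes moved by 0.367 in the MucinDuctal against Acinar comparison and by 0.379 in that of EEC against Acinar.

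**Figure D5:**
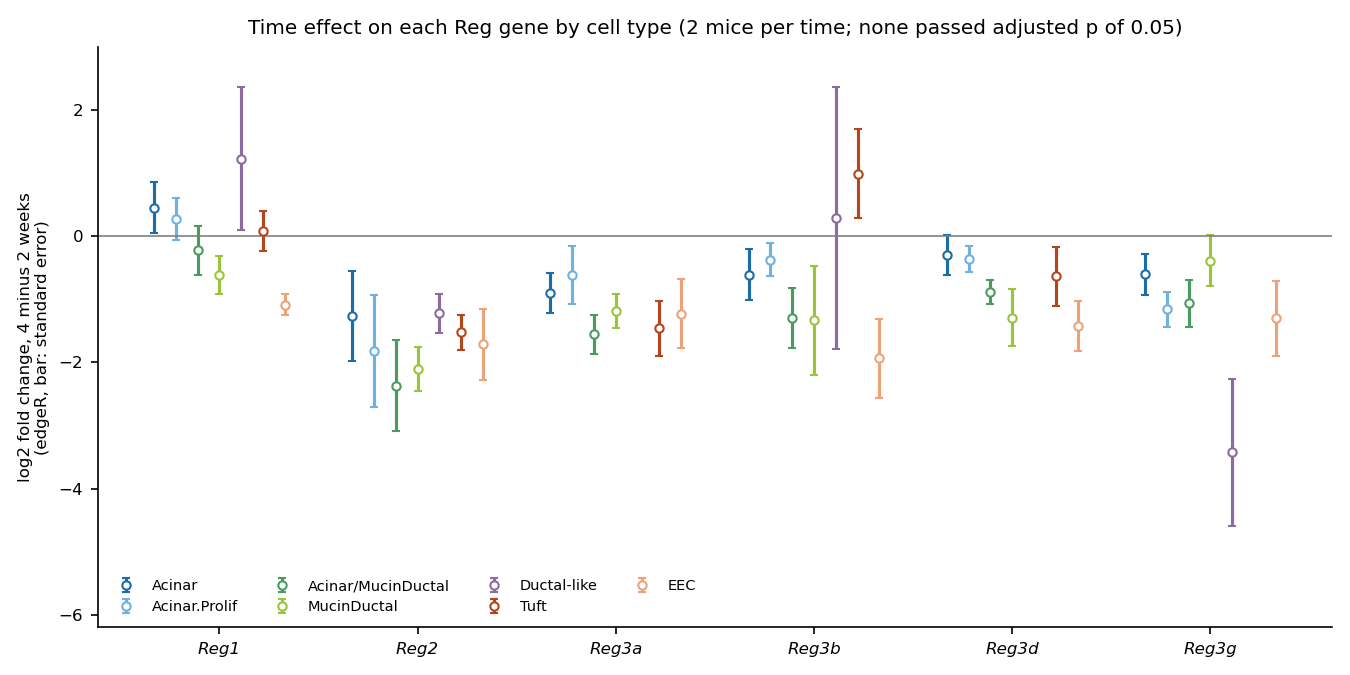
Log2 change from 2 to 4 weeks of each Reg gene in each tested type, with bars of 1 SE from edgeR. Most points lie below 0, Reg1 lies on both sides of it, and no change had an adjusted p under 0.05. With total UMIs in place of TMM, Reg1 in Acinar cells moves from 0.46 to -0.01.

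Members could be ordered by how alike their profiles were over the 31 pairs of mouse and type with at least 20 cells. On log2(CPM + 10), Pearson's r was 0.97 for Reg2 with Reg3a and for Reg3a with Reg3d, 0.95 for Reg2 with Reg3d and 0.76 for Reg3b with Reg3g. Reg3b was no closer to Reg3g than to Reg2 (0.76) or Reg3d (0.78), gave 0.75 with Reg3a and was closest to Reg1 (0.86). Reg1 gave 0.81 with Reg2, 0.86 with Reg3a, 0.89 with Reg3d and 0.53 with Reg3g. The lowest values were 0.39 for Reg3d with Reg3g and 0.43 for Reg2 and for Reg3a with Reg3g. The points share mice, libraries and the enzyme-rich totals of acinar types, so these are descriptions. Among 10655 genes, the 5 most like Reg1 were Ctrb1 (r = 0.963), Cckar (0.958), Bhlha15 (0.947), Clps (0.938) and Sycn (0.934), which include a chymotrypsinogen, the cholecystokinin receptor of acinar cells and the acinar transcription factor Mist1. For Reg2 they were Gp2 (0.963), 1810053B23Rik (0.955), Ptger3 (0.937), 1810028F09Rik (0.933) and Slc38a3 (0.933), with the zymogen granule glycoprotein Gp2 first. For Reg3a they were 1810028F09Rik and Gp2 (0.958 each), Gm4744 (0.955), Ctrc (0.954) and Aqp12 (0.953), and for Reg3d Aqp12 (0.989), 1810028F09Rik (0.984), Cuzd1 (0.982), Rnase1 (0.981) and Ctrc (0.980). Reg3b was most like Sardh (0.877), Ggt1 (0.870), 4930415O20Rik (0.865), Rnd2 (0.848) and Gjb2 (0.835). Reg3g had the least close partners, Rrbp1 (0.822), Dram1 (0.813), Sardh (0.812), Slc17a9 (0.808) and Slc7a11 (0.801), and shared Sardh with Reg3b. Its level was 87.9 CPM at most and averaged 1.36 CPM in Tuft cells and 3.72 CPM in EEC, so the added 10 CPM narrows its range. The part of this and of counting error in its lower r was not tested.

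The cytokines known to induce Reg genes were scarce in the sorted epithelium. None of 13 genes reached a mean of 10 CPM in 7 of the 8 types, and Il1b reached 55.5 ± 94.9 CPM in progenitor cells (SD, n = 3), where it ranged from 0 to 165.1 CPM and the neutrophil genes S100a8 and S100a9 averaged 215.5 and 253.8 CPM. Of 15 receptor genes, 3 reached 10 CPM in Acinar and 8 in MucinDuctal cells. The IL-17 receptor subunit Il17re was 1.51 ± 0.920 CPM in Acinar and 26.4 ± 7.44 in MucinDuctal cells, and the shared IL-6 family receptor Il6st 13.5 ± 3.38 and 52.8 ± 3.49 (SD, n = 4). The IL-22 receptor subunit Il22ra1 stayed under 1 CPM on average in both, at 0.339 and 0.0425. Of 15 JAK-STAT3 genes, 7 reached 10 CPM in Acinar and 14 in MucinDuctal cells. Among them Stat3 was 17.0 ± 8.28 and 53.6 ± 8.42 CPM and Nfkbiz 9.30 ± 8.45 and 61.6 ± 10.7. Since enzyme UMIs lower the CPM of other genes in Acinar cells, part of each gap is set by the scale.

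Over time no tested gene of these lists passed. In each type 0 tested genes of the receptor, JAK-STAT3 and acute-phase lists had an edgeR adjusted p under 0.05, and of the 13 cytokines 2 were tested in MucinDuctal cells and 0 in the other types. In MucinDuctal cells 0 of 12 tested receptors and 0 of 15 tested JAK-STAT3 genes had an unadjusted p under 0.05, with list medians of 0.11 and -0.13 against -0.01 over all genes. Those 2 cytokines, Lif and Tnf, were lower at an unadjusted p under 0.05 (edgeR adjusted p = 0.824 for both). In Acinar/MucinDuctal cells Stat3 and Pim1 were at an unadjusted p under 0.05, Stat3 lower and Pim1 higher. Pim1 in Ductal-like cells and the receptor genes Il10rb in Tuft cells and Tnfrsf1a in EEC were higher at that level. In EEC the acute-phase genes Lbp, Dmbt1 and C3 were lower at that level. Other acute-phase and antimicrobial genes were higher at that level, namely the lysozyme genes Lyz1 and Lyz2 in Acinar/MucinDuctal, Saa3 in MucinDuctal and Itih4 in Ductal-like cells, and Lyz2 was lower in Tuft cells. In Acinar/MucinDuctal cells 11 of the 12 tested genes of that list were higher, with a median of 0.46 against -0.01 over all genes. In Acinar cells the enzyme list had a median of 0.58 against -0.03 over all genes, with 19 of 21 genes higher and 0 at an unadjusted p under 0.05.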

How the data were processed

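Per the labels' protocols, EYFP-sorted pancreas cells were run on the 10x Genomics 3′ v3.1 chemistry. Per the submitters' processing notes, Cell Ranger 4.0.0, Seurat 3.2.3 and mm10 were used, with their roles not given in the sources used here. The authors deposited UMI counts per gene and cell, filtered to cells of at least 1000 UMIs as the values show, and label tables that name the type and cluster of EYFP-positive cells.

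Counts were summed per mouse and type. Levels are CPM and UMIs per cell, types in a mouse with under 20 cells were left out, and shares were also taken after thinning cells to 1500 UMIs, with shallower cells left out. Unlabelled cells were clustered with scanpy 1.11.5 (2000 variable genes, 30 components, 15 neighbours, resolution 0.6) and named from at least 3 markers, and the B cell-like clusters served as background, with T or NK cell-like, fibroblast-like and endothelial-like clusters as alternatives. Time effects used edgeR 4.0.16 (TMM, filterByExpr, robust quasi-likelihood), and the alternatives were DESeq2 1.42.0, no filter, library sizes without enzymes and Reg genes, and leaving out each mouse. Total UMIs without TMM was added after seeing the data. On simulated data with 200 genes changed 4-fold, the Acinar fit recovered 175 with 5 false calls, and the MucinDuctal fit 193 with 5. Recovery was highest in Tuft cells, at 195. It was lower in Ductal-like cells (149), for MucinDuctal against Acinar (140) and for EEC against Acinar (143). These counts hold for the simulated spread only, and in the real data Reg2 in MucinDuctal cells changed over 4-fold without passing. Scrublet called 32 cells (0.151%), too few to be useful, so the 905 cells of highest score (4.28%) were left out as an alternative instead.

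The members and gene lists were chosen with earlier results of these data known. Beside the members, the 5 genes of closest profile to each (reaching 10 CPM in 1 type, with 10 CPM added before log2) and genes of the fixed lists are named. Sequences and positions are from RefSeq for GRCm38.p6, and all 6 members matched by symbol. Coding sequences and transcripts came from the reference annotation of the same build. No protein sequence is used here.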

Additional observations from a re-analysis of the deposited data

How the results depend on the processing

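Counts of genes with an adjusted p under 0.05 were 0 in each comparison except Acinar.Prolif, with 1, and they depended on the tool. DESeq2 called 17 genes in Acinar, 2 in Acinar.Prolif, 21 in Acinar/MucinDuctal, 44 in MucinDuctal and 1 in Ductal-like cells, then 30 in Tuft, 14 in EEC and 47 for EEC against Acinar. Without a filter on low counts edgeR called 5, 4, 26, 0, 2, 276 and 4 in the same 7 types, 21 for MucinDuctal against Acinar and 76 for EEC against Acinar. With total UMIs in place of TMM, a choice made after seeing the data, it called 9 in Acinar, 2 in Acinar.Prolif, 2 in Acinar/MucinDuctal and 7 in EEC. Leaving out 1 mouse, where the lone mouse of its time is assumed to vary like the others, gave 13 to 129 genes in Acinar, 5 to 143 in Acinar.Prolif, 0 to 122 in Acinar/MucinDuctal, 0 to 191 in MucinDuctal and 0 to 230 in Ductal-like cells. It gave 5 to 273 in Tuft, 0 to 366 in EEC, and 2 to 970 and 19 to 112 for MucinDuctal and EEC against Acinar. The cause was not tested. Of 204 member values under other settings, 195 kept direction and side of the threshold, 7 newly passed it and 2 turned, namely Reg1 in Acinar (-0.01) and Reg3a in MucinDuctal against Acinar (0.07), both with total UMIs. Of 203 member values with a mouse left out, 172 kept both, 14 newly passed the threshold and 17 turned.

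Leaving out a mouse turned the sign of several log2 changes, whose ranges were -1.90 to 0.15 (Reg2), -0.98 to 0.01 (Reg3b) and -0.74 to 0.07 (Reg3d) in Acinar, -2.07 to 0.28 (Reg3b) and -0.96 to 0.03 (Reg3g) in MucinDuctal, -0.55 to 1.99 (Reg1) and -2.24 to 2.91 (Reg3b) in Ductal-like, and -0.31 to 0.39 (Reg1) and -0.02 to 1.57 (Reg3b) in Tuft cells. For MucinDuctal against Acinar the ranges were -1.18 to 0.19 (Reg3b) and -0.18 to 0.69 (Reg3g), and for EEC against Acinar -1.53 to 0.15 (Reg3a) and -1.16 to 0.01 (Reg3g).

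The log2 ratio of MucinDuctal to Acinar moved with the scale. Enzyme and Reg UMIs, which fill much of the Acinar total, are left out of the scale of other genes. Values per cell follow depth, with medians of 19304, 21810, 15110 and 15305 UMIs in MucinDuctal and 26482, 24008, 27906 and 32665 in Acinar cells. Against UMIs of other genes it was -4.48 (Reg1), -7.45 (Reg2), -7.18 (Reg3a), -2.91 (Reg3b), -7.52 (Reg3d) and -0.15 (Reg3g). Per cell it was -3.86 (Reg1), -6.57 (Reg3a), -2.29 (Reg3b) and 0.47 (Reg3g). Other ratios to Acinar that turned were those of Acinar.Prolif for Reg1 (-0.24), Reg3b (-0.26) and Reg3d (-0.09) against UMIs of other genes, and for Reg3b per cell (-0.00) and with 1 mouse left out (-0.01 to 0.25). Those of Acinar/MucinDuctal for Reg3g were -0.46 and -1.21 on these scales. No paired analysis was possible because each mouse belongs to 1 time, its label ties it to no mouse of the other, and the replicate numbers used here follow accession order. With 2 mice per time, no exact permutation test could go below p = 0.333. Depth limits Reg3g in particular, at about 1 UMI per cell.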

Other observations

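Other secreted defence genes had their own distribution over the types. Lcn2, which encodes the iron-withholding protein lipocalin 2, averaged 1028 ± 229 CPM in Ductal-like cells (SD, n = 4) against 2.11 ± 1.09 in Acinar and 9.52 ± 5.69 in MucinDuctal cells. Pigr, the receptor that carries immunoglobulin A across epithelia, was 741.5 ± 91.0 CPM in MucinDuctal and 19.2 ± 20.0 in Acinar cells. Dmbt1, a secreted scavenger receptor that binds bacteria, was 839.5 ± 205.8 CPM in Acinar and 1390 ± 831 in MucinDuctal cells, with overlapping ranges. Reg4, the family member outside the chromosome 6 cluster, stayed under 1 CPM on average in both, at 0.0144 and 0.687. Extl3, proposed as a receptor for Reg proteins, was 31.4 ± 5.16 CPM in Acinar and 20.6 ± 5.28 in MucinDuctal cells, and Extl3 had no unadjusted p under 0.05 over time in any of the 7 types tested. Reg4 passed the filter on low counts in none of them. No test was made between types.

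Among the finer labels of tuft and enteroendocrine cells, Reg levels were uneven. Ppy+ cells of 2-week mouse 2 had 14283 CPM of Reg1 against 2756, 1963 and 1096 in the other mice, with 20 cells, a median of 10 Reg1 UMIs and 36.2% of the UMIs in 1 cell. Neurog3+ enteroendocrine progenitors of 4-week mouse 2 had 5118 CPM of Reg1, 63.5% of it in 1 of 95 cells. Reg1 in Tuft-2 cells was 1324, 541.6, 587.4 and 674.5 CPM and in Tuft-3 cells 1025, 568.8, 604.9 and 856.4 CPM, below the B cell-like CPM of the same mouse in each case.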
